A study of Mus musculus with 6 samples.

Results

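The genes described here are 49 interferon-stimulated genes, chosen by symbol from the 47729 genes counted in each library, and all 49 symbols were found. They comprise 34 genes of the type I antiviral programme (6 nucleic acid sensors, 20 direct effectors and 8 genes of the ISG15, ubiquitin and PARP group), 4 regulators, 4 others and 7 interferon-gamma GTPases. The data are RNA-seq of C57BL/6 mouse liver on day 17 of feeding with 0.1% DDC, which blocks haem synthesis and causes a cholestatic liver injury. The 3 control libraries are called WT in their titles and shNC in the series design, and the 3 others, called shAtoh8, had the bHLH transcription factor gene Atoh8 knocked down. Both groups received DDC, so no value here compares injured with healthy liver. How the knockdown was delivered, and the age and sex of the mice, were not given in the labels or design text. The labels name hepatocytes as the cell type but describe RNA from whole removed livers. Nothing in them ties replicates to separate animals, and every p-value therefore measures the spread between samples that may differ only technically.

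Interferons are secreted when a cell senses foreign or misplaced nucleic acid. Type I interferons act through the receptor IFNAR and a complex that contains STAT2 and IRF9, which binds the interferon-stimulated response element (ISRE) beside antiviral genes. Interferon-gamma, made mainly by T and NK cells, acts through IFNGR and the gamma-activated site (GAS) and induces GTPases of the GBP and IRG families that attack the membranes around intracellular microbes. In liver, hepatocytes, macrophages and endothelial cells can all express both sets. In RNA from whole tissue, fewer cells of a type and less RNA per cell cannot be told apart.

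Each library had between 31912058 and 37969644 reads in genes, and 3 reads corresponded to 0.0699 to 0.0994 CPM (counts scaled to library size, with TMM factors). Atoh8, the targeted gene, had 63.8, 16.8 and 16.4 CPM in controls 1, 2 and 3 (here and below in that order) and 10.2, 9.83 and 5.64 CPM in the knockdown libraries. It was below every control in each knockdown library, but the difference did not pass the edgeR quasi-likelihood test over all genes (log2 fold change -1.92, SE 0.58, adjusted p = 0.197). Without the first control, which had the highest level, the log2 fold change was -0.95 (SE 0.23) and edgeR called Atoh8 lower (adjusted p = 0.0115). DESeq2 called it with all libraries (adjusted p = 0.0181), so the call and the size of the knockdown depend on the tool and on that library. Control replicate 1 stood apart. The first principal component, with 48.2% of the variance, separated it from the other controls, and its log2 counts correlated at 0.913 and 0.903 with those, against 0.982 between them (Pearson, over genes). Counts of calls are therefore given with and without it, and the value of a gene where leaving it out changed the call or moved the log2 fold change by over 1.5 times. With all libraries, edgeR called 102 of 13767 genes higher (0.741%) and 17 lower (0.123%) at an adjusted p under 0.05, and without control replicate 1 it called 2348 of 14222 higher (16.5%) and 2284 lower (16.1%). An offset for GC content and transcript length, added after seeing the data, gave 318 higher and 301 lower with all libraries, and moved the median log2 fold change of all genes from -0.05 to -0.16.

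Many members share short promoter sequences. They were listed as interferon-stimulated genes, which the ISRE and GAS serve, so the shares below describe the list and are no independent evidence. Of the 37 members with a window in RefSeq's promoter table (GRCm38.p6, 250 bases before to 50 after the gene start), 21 held the ISRE core (GAAA, any 2 bases, GAAA) on either strand. That is 56.8%, against 3.99% of the 27025 genes with a window of 300 bases. All 6 GTPases with a window held it, as did 14 of the 24 type I antiviral genes with one. The GAS motif (TTC, any 3 bases, GAA), which reads the same on both strands, was found in 9 of the 37 (24.3%, against 9.55% of all genes) and in 3 of the 6 GTPases. Windows around the ISRE core are shown for some of the members whose values are given later, to set antiviral genes beside GTPases. Each reads 5′ to 3′ on the gene's own strand, capitals mark the ISRE core or its reverse complement, and overlapping matches run together.
Isg15 (chr4:156200855-156200916, minus strand): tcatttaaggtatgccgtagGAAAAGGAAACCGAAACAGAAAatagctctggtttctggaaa
Ifit3 (chr19:34583353-34583436, plus strand): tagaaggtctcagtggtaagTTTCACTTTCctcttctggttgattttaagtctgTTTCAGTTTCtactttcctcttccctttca
Ifit3b (chr19:34607749-34607832, plus strand): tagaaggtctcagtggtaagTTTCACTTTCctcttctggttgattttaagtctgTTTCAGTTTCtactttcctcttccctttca
Oas1a (chr5:120907526-120907565, minus strand): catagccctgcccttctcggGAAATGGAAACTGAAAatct
Trim30a (chr7:104465200-104465249, minus strand): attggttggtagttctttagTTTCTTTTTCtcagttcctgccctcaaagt
Gbp2 (chr3:142620584-142620633, plus strand): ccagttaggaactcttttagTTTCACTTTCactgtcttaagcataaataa
Gbp7 (chr3:142530263-142530312, plus strand): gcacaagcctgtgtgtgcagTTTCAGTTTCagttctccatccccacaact
Igtp (chr11:58199502-58199551, plus strand): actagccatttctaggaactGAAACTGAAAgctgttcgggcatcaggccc
Irgm2 (chr11:58214893-58214942, plus strand): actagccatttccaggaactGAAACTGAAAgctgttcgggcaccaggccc
Isg15 held 3 overlapping matches, and its first match began 78 bases before the start. The windows of Ifit3 and Ifit3b are the same letter for letter. In Igtp and Irgm2 a GAS match, TTCTAGGAA and TTCCAGGAA, lay just before the ISRE core, and Gbp7 held 2 GAS matches further upstream. Bst2, Ddx60, Gbp3, Irgm1, Oas1g and Stat2 also held the ISRE core before the start, in windows not shown. The windows of Xaf1 and Cmpk2 held no ISRE core, which says only that these letters were not found there.

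In the knockdown livers, 16 of the 34 type I antiviral genes (47.1%) had every library above every control, as did 3 of the 7 GTPases (42.9%) and 0 of the 4 regulators. With all libraries edgeR called 1 of these antiviral genes higher and DESeq2 11, and neither called a regulator or GTPase. In 21 of 49 members every knockdown library lay above every control, and in 0 every knockdown library lay below. That is 42.9% above, against 13% of all genes tested above and 10% below. By edgeR with all libraries, Xaf1 and Cmpk2 rose (2 of 49, where 0.741% of all genes were called higher) and 0 fell, with 18 members higher and 0 lower at an unadjusted p under 0.05, against 9.14% and 5.4% of all genes, the background for each such count below. DESeq2 called 12 members higher, against 3.73% of all genes, and 0 lower, against 1.4%. All 12 were among the 21. limma-voom with quality weights called 24 higher, against 18.7%, and 6 lower, against 18.2%.

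The list was put together with results of these data known, so these shares describe the members and are no independent evidence of a direction. The median log2 fold change was 0.38 over the 49 members, 0.76 over the 34 type I antiviral genes and 0.07 over the 7 GTPases, against -0.05 over all genes tested. Without control replicate 1 these medians were 0.51, 0.79 and -0.15, against 0.01. In that fit 22 members were called higher, where 16.5% of all genes were, and 6 lower, where 16.1% were. Of the 22, 17 also had every knockdown library above all 3 controls.

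**Figure D1:**
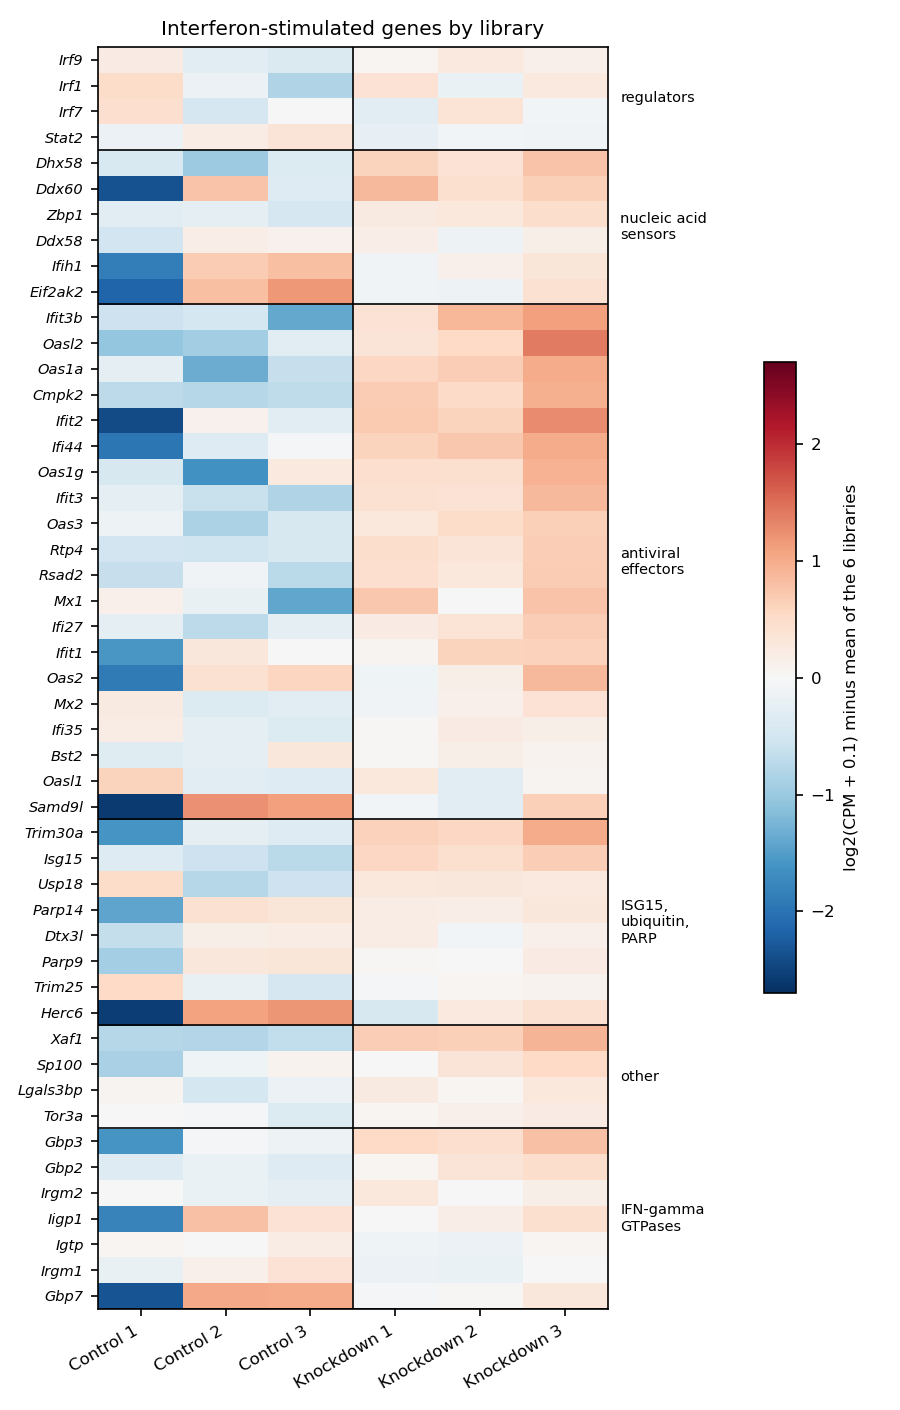
Heat map of the 49 members (rows, grouped by role and ordered by fold change) in the 6 libraries (columns), coloured by log2(CPM + 0.1) minus the gene's mean over the libraries. Most antiviral effectors are blue in the 3 controls and red in the 3 knockdown libraries, while control replicate 1 alone is deep blue for Samd9l, Herc6, Gbp7, Eif2ak2 and several others.

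The 4 regulators carry the interferon signal to DNA, and none passed edgeR or DESeq2 with all libraries (0 at an unadjusted p under 0.05). Irf7, the factor that amplifies type I interferon production, stood at 87.5, 46.3 and 63.3 CPM in the controls and at 51.9, 82.5 and 60.9 CPM in the knockdown libraries. Both groups covered the same range (log2 fold change -0.01, SE 0.29, edgeR adjusted p = 0.988), while without control replicate 1 Irf7 was at 0.26 (adjusted p = 0.353). Irf9, the DNA-binding subunit of the complex with STAT2, stood at 30.9, 21.3 and 20.3 CPM and at 27.7, 32.0 and 29.1 CPM. Its control replicate 1 lay within the knockdown range (log2 fold change 0.29, SE 0.22, edgeR adjusted p = 0.615). Without that library Irf9 rose by 0.52 on the log2 scale (edgeR, SE 0.13, adjusted p = 0.0138).

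Stat2, which encodes its partner in that complex, stood at 58.2, 73.9 and 81.8 CPM in the controls and at 55.4, 61.4 and 60.3 CPM in the knockdown libraries. The groups overlapped only through control replicate 1 (log2 fold change -0.27, SE 0.19, edgeR adjusted p = 0.583). Without that library Stat2 fell by 0.38 on the log2 scale (edgeR, SE 0.12, adjusted p = 0.0378). Irf1, which responds strongly to interferon-gamma, stood at 27.9, 17.7 and 11.1 CPM and at 25.9, 17.5 and 23.9 CPM. Its controls spanned the whole knockdown range (log2 fold change 0.25, SE 0.35, edgeR adjusted p = 0.793), while without control replicate 1 the value was 0.65 (adjusted p = 0.0504).

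Among the 6 sensors of foreign nucleic acid, Dhx58 and Zbp1 had every knockdown library above every control (33.3%, against 13% of all genes). None passed edgeR with all libraries (2 at an unadjusted p under 0.05, and 1, Dhx58, by DESeq2). Dhx58, which encodes LGP2, a regulator of the RIG-I-like receptors, stood at 6.72, 4.50 and 6.98 CPM in the controls and at 13.8, 11.8 and 15.3 CPM in the knockdown libraries. Control replicate 1 lay among the other controls, and the log2 fold change was 1.17 (SE 0.25, edgeR adjusted p = 0.0968, DESeq2 adjusted p = 0.00342). Zbp1, a sensor of left-handed nucleic acid, stood at 7.68, 8.08 and 6.95 CPM and at 11.3, 11.6 and 13.3 CPM. Here too the 3 controls were close together (log2 fold change 0.67, SE 0.20, edgeR adjusted p = 0.197). Without control replicate 1 edgeR called both higher, Dhx58 at 1.26 (adjusted p = 0.00268) and Zbp1 at 0.69 (adjusted p = 0.0136).

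In the next sensors control replicate 1 lay far below the other controls. Ddx60, a helicase gene, stood at 0.662, 6.59 and 2.96 CPM in the controls and at 7.05, 5.17 and 5.97 CPM in the knockdown libraries. Control replicate 2 lay within the knockdown range (log2 fold change 0.83, SE 0.67, edgeR adjusted p = 0.636), while without control replicate 1 the value was 0.35 (adjusted p = 0.425). Eif2ak2, which encodes the kinase PKR that shuts down translation, stood at 2.88, 23.6 and 30.2 CPM and at 12.5, 12.1 and 17.8 CPM. The knockdown libraries lay between control replicate 1 and the other controls. With all libraries the log2 fold change was -0.42 (SE 0.70, edgeR adjusted p = 0.823), while without control replicate 1 Eif2ak2 fell by 0.91 on the log2 scale (edgeR, SE 0.20, adjusted p = 0.00686). Of the main RNA receptors, Ddx58 (RIG-I) had a log2 fold change of 0.12 and Ifih1 (MDA5) one of -0.15 with all libraries, neither passing edgeR (adjusted p = 0.862 and 0.935). Without control replicate 1 Ddx58 was at -0.06 (adjusted p = 0.777) and Ifih1 fell by 0.61 (adjusted p = 0.0106).

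The 20 direct effectors held 12 members with every knockdown library above every control (60.0%, against 13% of all genes), and Cmpk2 rose by edgeR. Cmpk2, a mitochondrial nucleotide kinase gene next to Rsad2 on chromosome 12 (ENSMUSG00000020638, 26469204 to 26479837, plus strand, GRCm38), stood at 4.24, 4.07 and 4.29 CPM in the controls and at 11.3, 10.1 and 13.6 CPM in the knockdown libraries. The controls, replicate 1 included, differed by less than the knockdown libraries did among themselves. The means were 4.2 ± 0.114 and 11.7 ± 1.80 CPM (SD, n = 3), a log2 fold change of 1.47 (SE 0.22, edgeR adjusted p = 0.0389). Without control replicate 1 it was 1.5 (SE 0.21, edgeR adjusted p = 0.000774).

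Rtp4, which encodes a receptor-transporting protein that restrains viral replication, stood at 4.57, 4.50 and 4.87 CPM in the controls and at 9.16, 8.47 and 10.4 CPM in the knockdown libraries. The groups were well apart in all 6 libraries (log2 fold change 1.01, SE 0.21), but edgeR did not call it with all libraries (adjusted p = 0.0887), while DESeq2 did (adjusted p = 0.00202). Once control replicate 1 was removed, edgeR called it too, at an equal fold change (adjusted p = 0.00412). Oas1a, one of the synthetases whose product activates RNase L, stood at 2.72, 1.23 and 2.08 CPM and at 4.82, 5.23 and 6.69 CPM. No control reached the lowest knockdown library (log2 fold change 1.47, SE 0.35, edgeR adjusted p = 0.126), while without control replicate 1 Oas1a rose (1.77, edgeR adjusted p = 0.00232). Oas1g, its near copy on chromosome 5, stood at 0.729, 0.258 and 1.23 CPM and at 1.43, 1.41 and 2.03 CPM. It also did not overlap (log2 fold change 1.14, SE 0.56, edgeR adjusted p = 0.414). Reads of this pair may be placed on either gene.

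Ifit3, a scaffold of the IFIT complex that binds viral RNA, stood at 6.42, 4.93 and 4.26 CPM in the controls and at 10.1, 9.93 and 14.0 CPM in the knockdown libraries. Its copy Ifit3b stood at 0.894, 0.946 and 0.455 CPM and at 1.82, 2.61 and 3.05 CPM. Both had all knockdown libraries above all controls, with log2 fold changes of 1.12 (SE 0.27) and 1.70 (SE 0.41), and neither passed edgeR with all libraries (adjusted p = 0.124 and 0.132). Their reads cannot be assigned to one copy with certainty. With control replicate 1 left out, both rose, by 1.32 and 1.83 (edgeR adjusted p = 0.00208 and 0.00961).

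Over all 20 effectors, 18 log2 fold changes were positive, the median was 0.98 and the range was -0.50 to 1.70. The highest-ranked effector by level, Bst2, which encodes the tether of budding virus particles and had 204 FPKM in the controls, was near level between the groups (log2 fold change 0.16, edgeR adjusted p = 0.784). The lowest value belonged to Samd9l. In the fit that lacked control replicate 1, edgeR called 12 effectors higher, where 16.5% of all genes were, and Samd9l lower (-1.01, adjusted p = 0.0116).

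**Figure D2:**
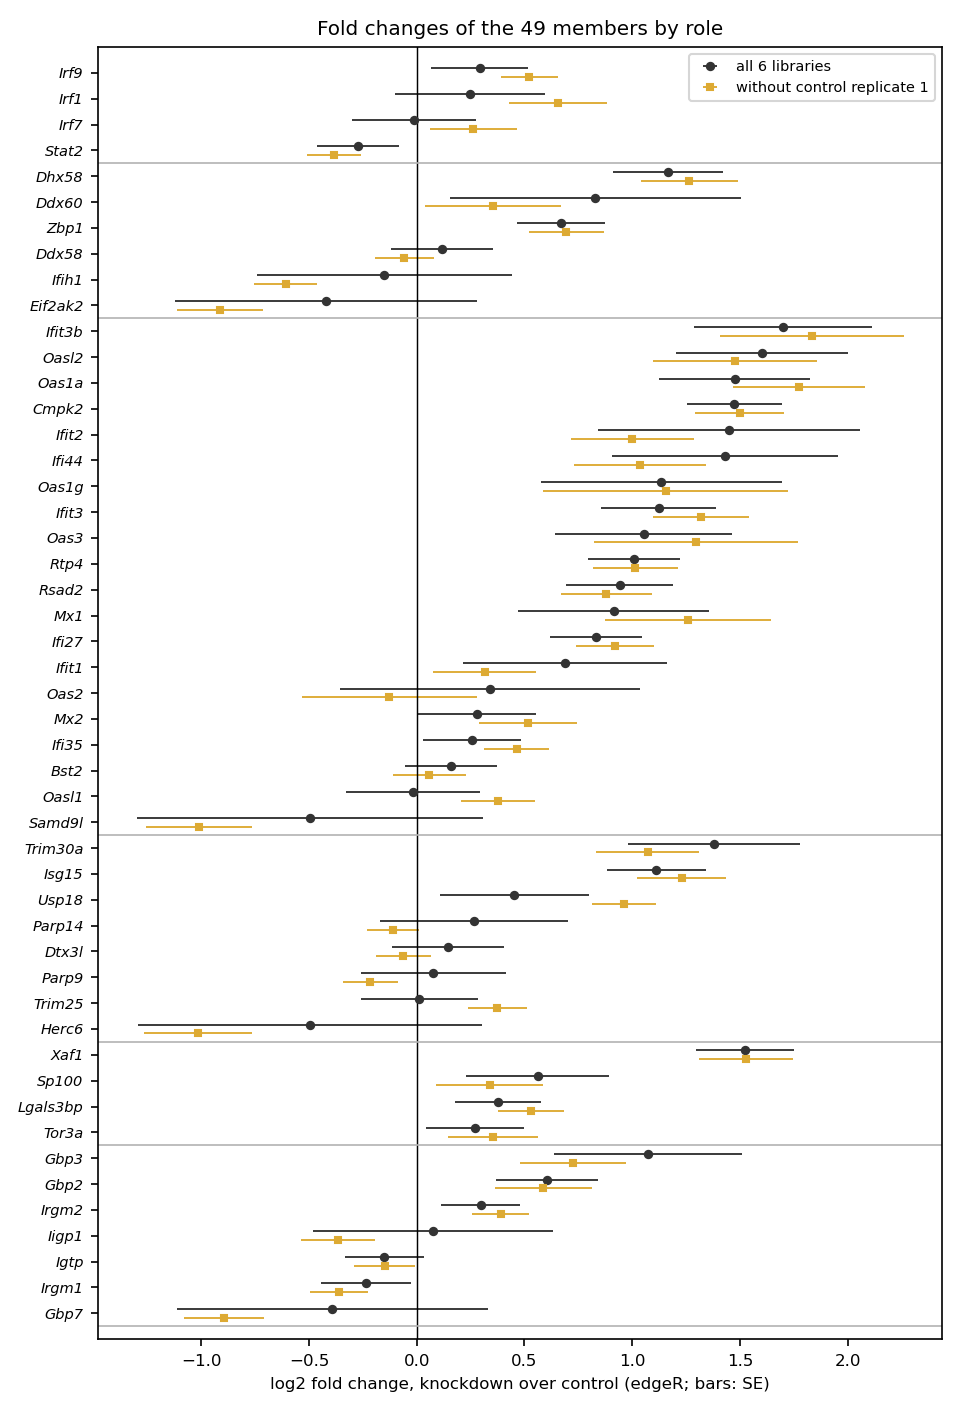
Log2 fold changes of knockdown over control from edgeR with standard errors, for each of the 49 members grouped by role, with all 6 libraries (circles) and without control replicate 1 (squares). The effectors run from 1.70 for Ifit3b down to -0.50 for Samd9l, and the bars of Eif2ak2, Samd9l, Herc6 and Gbp7 shrink when control replicate 1 is left out.

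Isg15 encodes the ubiquitin-like protein that is attached to other proteins during an interferon response. It belongs to the list of 8 ISG15, ubiquitin and PARP genes. Isg15 stood at 4.31, 3.73 and 3.31 CPM in the controls and at 8.17, 7.50 and 8.86 CPM in the knockdown libraries. The groups did not overlap, and the log2 fold change was 1.11 (SE 0.23, edgeR adjusted p = 0.0842, DESeq2 adjusted p = 0.000993). Trim30a, a TRIM-family gene, stood at 1.26, 3.35 and 3.12 CPM and at 6.18, 5.88 and 8.11 CPM. Each knockdown library lay above each control, with control replicate 1 the lowest (log2 fold change 1.38, SE 0.40, edgeR adjusted p = 0.180). Once control replicate 1 was removed, edgeR called Isg15 (1.23, adjusted p = 0.00201) and Trim30a (1.07, adjusted p = 0.00778) higher.

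Usp18, the protease that removes ISG15 and damps signalling at IFNAR, stood at 22.3, 9.32 and 10.7 CPM in the controls and at 19.3, 19.5 and 19.1 CPM in the knockdown libraries. Control replicate 1 was the highest of all 6 libraries. Without it Usp18 rose by 0.96 (log2 fold change, SE 0.15; edgeR adjusted p = 0.00129), against 0.45 with it (adjusted p = 0.611). Herc6, the mouse ligase for ISG15, went the other way, at 0.695, 9.78 and 10.5 CPM and at 3.35, 5.41 and 6.08 CPM. Its control replicate 1 was the lowest library (log2 fold change -0.50, SE 0.80, edgeR adjusted p = 0.818). Without that library Herc6 fell by 1.02 on the log2 scale (edgeR, SE 0.25, adjusted p = 0.0127). None of the 8 passed edgeR with all libraries (2 at an unadjusted p under 0.05, and 2 by DESeq2). The 4 others had log2 fold changes between 0.01 and 0.27 in that fit. Exons of Parp9 and Dtx3l overlap on opposite strands over 9.4% and 8% of their exon bases, and no source used here says whether strand was used in counting.

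Among the 4 other members, Xaf1 rose. Xaf1 encodes an antagonist of the apoptosis inhibitor XIAP (ENSMUSG00000040483, GRCm38 chromosome 11, 72301629 to 72313733, plus strand). It stood at 2.81, 2.75 and 3.02 CPM in the controls and at 7.78, 7.63 and 9.30 CPM in the knockdown libraries. Control replicate 1 matched the other controls, and the means were 2.86 ± 0.141 and 8.24 ± 0.923 CPM (SD, n = 3). The log2 fold change was 1.52 (SE 0.23, edgeR adjusted p = 0.0384) and 1.53 without control replicate 1 (SE 0.22, edgeR adjusted p = 0.00089). Neither Xaf1 nor Cmpk2 was called by edgeR when any of the 5 other libraries was left out, with adjusted p from 0.0996 to 0.235 and log2 fold changes from 1.39 to 1.64. On the authors' FPKM, limma on log2(FPKM + 0.1) did not call them either (adjusted p = 0.0513 for Xaf1 and 0.0569 for Cmpk2).

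Lgals3bp, which encodes a secreted scavenger-receptor protein, stood at 113, 77.3 and 96.4 CPM in the controls and at 128, 112 and 132 CPM in the knockdown libraries. The groups met at control replicate 1 (log2 fold change 0.38, SE 0.20, edgeR adjusted p = 0.451), while without it Lgals3bp rose by 0.53 (edgeR adjusted p = 0.0232). Sp100, a gene of nuclear bodies, stood at 2.12, 3.64 and 4.22 CPM and at 3.95, 5.02 and 5.78 CPM. Control replicate 3 lay inside the knockdown range (log2 fold change 0.56, SE 0.33, edgeR adjusted p = 0.502), while without control replicate 1 the value was 0.34 (adjusted p = 0.326).

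**Figure D3:**
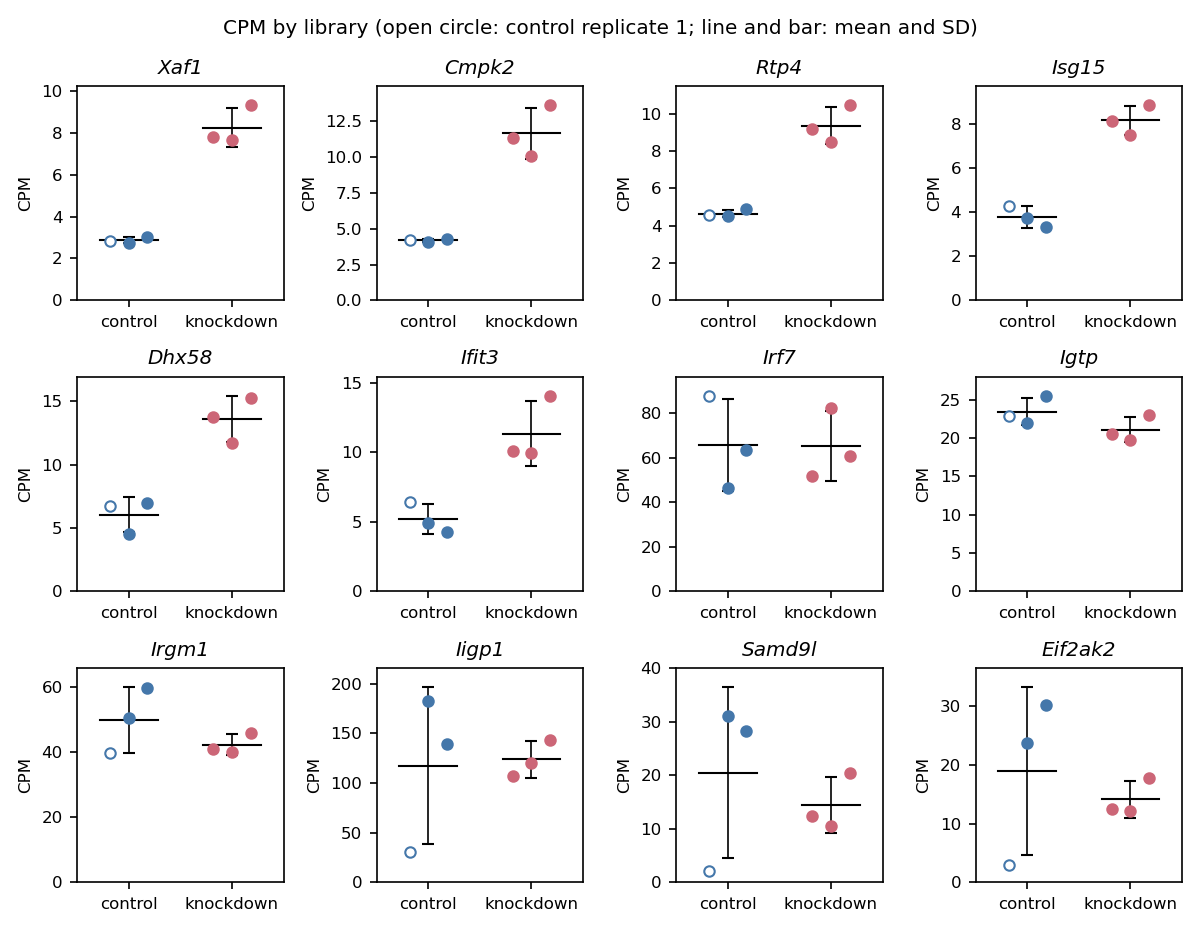
CPM of 12 members in each library, with the mean as a line and the SD as a bar, and control replicate 1 as an open circle. Xaf1, Cmpk2, Rtp4, Isg15, Dhx58 and Ifit3 have tight controls below all knockdown libraries, while Irf7, Igtp and Irgm1 overlap and control replicate 1 is far below the rest for Iigp1, Samd9l and Eif2ak2. Samd9l was chosen after its values were seen.

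The 7 interferon-gamma GTPases lay on both sides of 0. None passed edgeR or DESeq2 with all libraries (2 at an unadjusted p under 0.05, both higher), and 4 had positive and 3 negative fold changes. In 3 every knockdown library lay above every control (42.9%, against 47.1% of the type I antiviral genes and 13% of all genes). Gbp2, a guanylate-binding protein gene, stood at 3.78, 4.27 and 3.80 CPM in the controls and at 5.07, 6.22 and 6.74 CPM in the knockdown libraries. Its groups were apart in every library (log2 fold change 0.60, SE 0.24, edgeR adjusted p = 0.304). Gbp3 stood at 0.894, 2.81 and 2.60 CPM and at 4.27, 3.97 and 5.03 CPM. It did not overlap either, with control replicate 1 lowest (log2 fold change 1.07, SE 0.44, edgeR adjusted p = 0.318). Gbp7 stood at 1.03, 11.4 and 11.1 CPM and at 5.45, 5.64 and 6.85 CPM. Its knockdown libraries lay between control replicate 1 and the other controls (log2 fold change -0.39, SE 0.72, edgeR adjusted p = 0.847). Without control replicate 1 Gbp7 fell by 0.90 on the log2 scale (edgeR, SE 0.18, adjusted p = 0.00547).

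Of the immunity-related GTPases, which act on the vacuole around intracellular microbes, Igtp stood at 23.0, 22.0 and 25.4 CPM in the controls and at 20.6, 19.8 and 23.0 CPM in the knockdown libraries. The groups overlapped, and the log2 fold change was -0.15 (SE 0.18, edgeR adjusted p = 0.757). Irgm1, a regulator of the family, stood at 39.6, 50.4 and 59.6 CPM and at 41.1, 40.0 and 45.9 CPM. Control replicate 1 was the lowest of the 6 libraries (log2 fold change -0.24, SE 0.21, edgeR adjusted p = 0.664), while without it the value was -0.36 (adjusted p = 0.0619). Irgm2 stood at 31.9, 28.1 and 26.8 CPM and at 38.9, 32.1 and 35.7 CPM. It did not overlap, by a narrow margin (log2 fold change 0.30, SE 0.18, edgeR adjusted p = 0.523).

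Iigp1, an effector GTPase, stood at 30.3, 183 and 139 CPM in the controls and at 107, 120 and 144 CPM in the knockdown libraries. Control replicate 3 lay inside the knockdown range, control replicate 2 above it and control replicate 1 far below it (log2 fold change 0.07, SE 0.56, edgeR adjusted p = 0.968). Without that library Iigp1 was at -0.37 (adjusted p = 0.135), and edgeR called Gbp3 and Irgm2 higher (adjusted p = 0.0471 and 0.0476) and Gbp7 lower, so the list went both ways. No test of the difference between the antiviral genes and the GTPases was made, since the members were chosen with results known. Exons of Igtp and Irgm2 overlap on the same strand over 8.01% and 4.39% of their exon bases.

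**Figure D4:**
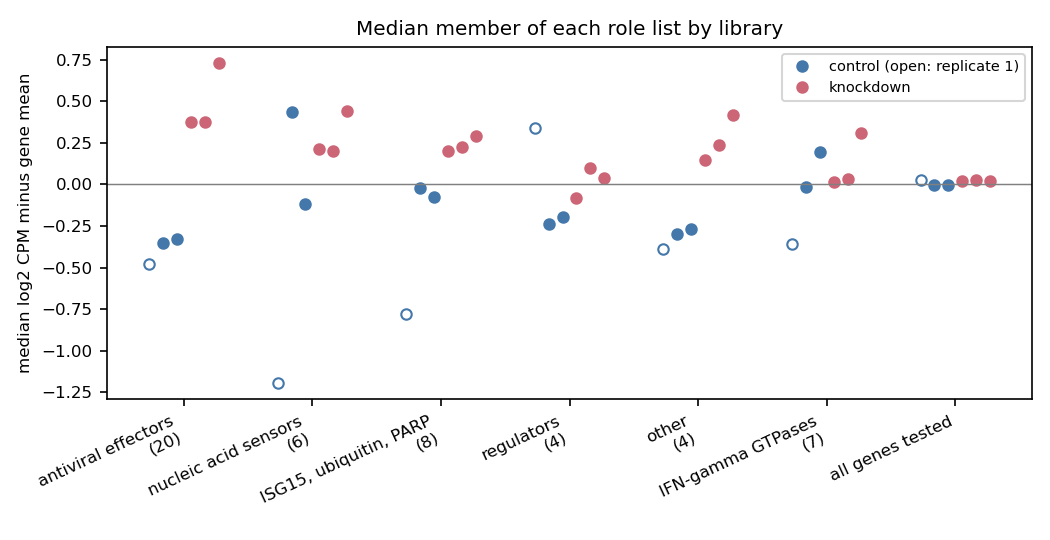
Median over each role list of log2 CPM minus the gene's own mean, for each library (control replicate 1 open). The effectors lie between -0.48 and -0.33 in the controls and between 0.38 and 0.73 in the knockdown libraries, whereas the GTPases run from -0.36 to 0.20 in the controls and from 0.02 to 0.31 in the knockdown libraries.

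The GTPases outside the 49 members did not share the flat median. Of 12 other GBP and IRG genes listed, 10 were tested. None passed edgeR with all libraries (4 at an unadjusted p under 0.05, and 1 by DESeq2). The median log2 fold change was 0.84, and 5 were above every control (50%, against 13% of all genes). Gm12250, an IRG-family gene, stood at 0.298, 0.487 and 0.390 CPM in the controls and at 1.14, 1.23 and 1.42 CPM in the knockdown libraries. Its knockdown values were all above its controls (log2 fold change 1.68, SE 0.39, edgeR adjusted p = 0.122, DESeq2 adjusted p = 0.0121). Gbp9 stood at 0.298, 3.58 and 2.83 CPM and at 8.02, 8.55 and 9.999 CPM, also without overlap (log2 fold change 1.98, SE 0.71, edgeR adjusted p = 0.263). With control replicate 1 left out, edgeR called 4 of the 10 higher, where 16.5% of all genes were. Gm12250 (1.53, adjusted p = 0.0239) and Gbp9 (1.48, adjusted p = 0.00114) were among the 4.

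Levels per transcript length differed widely between members. In the controls the authors' FPKM values averaged 204 for Bst2, 56.3 for Ifi27, 45.0 for Iigp1, 42.6 for Lgals3bp and 36.5 for Irf7, and they were lowest for Ifit3b at 0.423 and Oas3 at 0.173. Of the 16 members with at least 10 FPKM in the controls, 1 had every knockdown library above every control, and of the 33 members below 10 FPKM, 20 did. That 1 was Ifi27, which encodes a small membrane protein. It stood at 38.9, 28.8 and 38.8 CPM in the controls and at 54.6, 60.7 and 74.3 CPM in the knockdown libraries (log2 fold change 0.83, SE 0.21, edgeR adjusted p = 0.149, DESeq2 adjusted p = 0.0347), and without control replicate 1 edgeR called it (0.92, adjusted p = 0.00432). The split at 10 FPKM and the description of Ifi27 were chosen after the values were seen. The share of all genes above every control was not taken within these FPKM ranges, so the split cannot be set against other genes of like level.

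Control replicate 1 lay at least 2-fold below both other controls for 15 of the 49 members, against 21.4% of all genes tested, and at least 2-fold above both for 1, Usp18, against 7.56%. These 15 were Ifih1, Ddx60, Eif2ak2, Ifit1, Ifit2, Oas2, Samd9l, Ifi44, Herc6, Trim30a, Parp9, Parp14, Gbp3, Gbp7 and Iigp1. Their longest transcripts had a median GC content of 42.0% (38.8% to 50.6%), against 50.4% for the 33 members in neither set and 49.5% for all genes tested. Over the 49 members, the log2 difference of control replicate 1 from the other controls followed GC content with a Spearman correlation of 0.751, and over 13729 genes with one of 0.644. These points share the same 3 libraries. The difference of the knockdown libraries from control replicates 2 and 3 also followed GC content, at 0.268 over the members and 0.355 over all genes.

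Of the 6 members that edgeR called lower without control replicate 1, Ifih1, Eif2ak2, Samd9l, Herc6 and Gbp7 were among those 15, and Stat2 was not. With an offset for GC content and length in that fit, edgeR still called 5 of the 6 lower, while Herc6 was not called (edgeR adjusted p = 0.0509), and Parp9 and Irgm1 were called lower as well. Of the 22 called higher without control replicate 1, 5 were not called with the offset: Irf9 (0.23, edgeR adjusted p = 0.177), Zbp1 (0.38, adjusted p = 0.0836), Lgals3bp (0.19, adjusted p = 0.372), Irgm2 (0.26, adjusted p = 0.115) and Ifi35 (0.25, adjusted p = 0.199). In that fit 12.3% of all genes were called higher, as were 17 members, and 20.3% lower. With the same offset and all libraries, edgeR called 8 members higher, against 2.32% of all genes, and 0 lower, against 2.19%. The 8 were Cmpk2, Xaf1, Rtp4, Isg15, Oas1a, Ifi27, Ifi44 and Trim30a. The part of GC content in the fold changes was not tested beyond that fit.

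**Figure D5:**
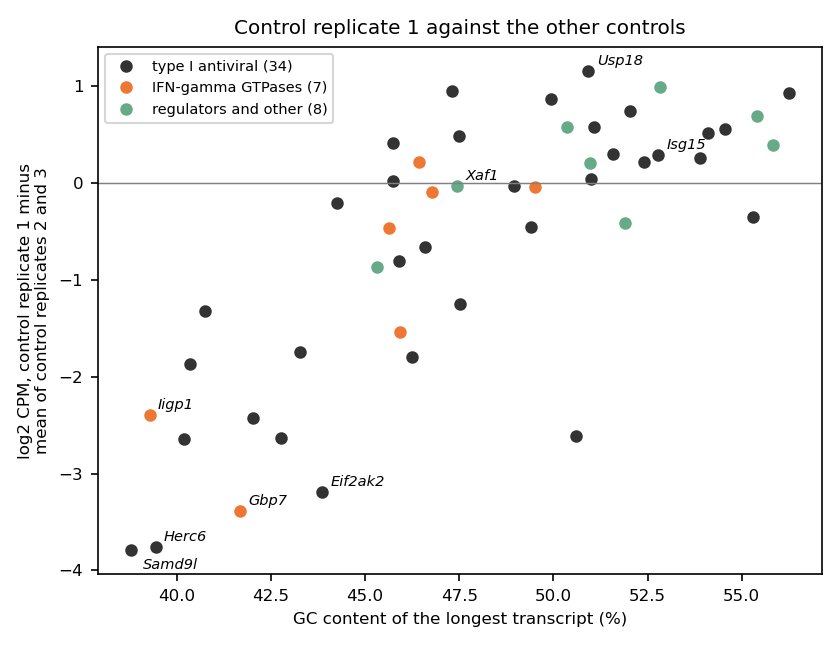
Log2 CPM of control replicate 1 minus the mean of control replicates 2 and 3, against the GC content of the longest transcript, for the 49 members coloured by class. Members with a low GC content, such as Samd9l, Herc6 and Gbp7, lie far below 0, whereas Xaf1 and Isg15 lie near it and Usp18 is the highest.

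Transcripts of interferons themselves were at or near 0. Of 10 ligand genes listed, 8 had no read in any library, Ifnb1 among them, which allows up to 0.0699 to 0.0994 CPM per library for counting error only. Ifng had 1 read, in knockdown replicate 1. The receptors were present. Ifnar1 stood at 59.0, 40.1 and 34.8 CPM in the controls and at 52.9, 46.9 and 46.1 CPM in the knockdown libraries, with overlap (log2 fold change 0.12, SE 0.24, edgeR adjusted p = 0.854). Ifngr1 stood at 25.9, 19.8 and 14.9 CPM and at 38.2, 28.1 and 37.8 CPM, with every knockdown library higher (log2 fold change 0.78, SE 0.26, edgeR adjusted p = 0.232). Its partner Ifngr2 (log2 fold change 0.78, edgeR adjusted p = 0.2) and Il10rb, a receptor chain that interferon lambda also uses (0.89, edgeR adjusted p = 0.186), did not pass either. In the fit that lacked control replicate 1, edgeR called these 4 receptor genes higher, Ifnar1 at 0.39 (adjusted p = 0.0439), Ifngr1 at 1.01 (adjusted p = 0.00316), Ifngr2 at 1.03 (adjusted p = 0.000977) and Il10rb at 1.08 (adjusted p = 0.00562). Ifnar2, the other chain of IFNAR, did not rise, at -0.15 with all libraries and -0.06 in that fit (edgeR adjusted p = 0.769 and 0.777). Ifnlr1, at a mean of 0.316 CPM in the controls, overlapped between the groups. It was at 2.59 with all libraries (edgeR adjusted p = 0.2, DESeq2 adjusted p = 0.0207) and at 3.29 in that fit (edgeR adjusted p = 0.011). DESeq2 called Il10rb with all libraries (adjusted p = 0.0479).

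Of the 14 receptor and JAK-STAT genes tested, 0 passed edgeR with all libraries (4 at an unadjusted p under 0.05, 2 by DESeq2). Without control replicate 1, 6 were called higher, where 16.5% of all genes were. Of 17 genes tested from a list on the induction of interferon, Adar and Samhd1 among them, 0 passed edgeR with all libraries (4 at an unadjusted p under 0.05, 0 by DESeq2). In 4 every knockdown library lay above every control and in 2 below (23.5% and 11.8%, against 13% and 10% of all genes). Without control replicate 1, edgeR called 4 higher and 1 lower, where 16.5% and 16.1% of all genes were. Mavs, the adaptor of the RNA sensors, stood at 114, 79.8 and 82.6 CPM in the controls and at 59.4, 64.8 and 53.3 CPM in the knockdown libraries. It was below every control (log2 fold change -0.64, SE 0.21, edgeR adjusted p = 0.221). Irf8, a factor of myeloid cells, had a log2 fold change of 0.78 (SE 0.29, edgeR adjusted p = 0.288). Once control replicate 1 was removed, edgeR called Mavs lower (-0.44, adjusted p = 0.0230) and Irf8 higher (1.09, adjusted p = 0.00481).

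Interferon-gamma targets outside the GTPases included 0 of 9 tested that passed edgeR with all libraries (5 at an unadjusted p under 0.05, 2 by DESeq2). Of the 9, 6 were above every control (66.7%, against 13% of all genes) and 8 had positive log2 fold changes, with a median of 0.79. Tap1, the peptide transporter of antigen presentation, stood at 15.9, 7.05 and 5.46 CPM in the controls and at 31.6, 27.7 and 25.2 CPM in the knockdown libraries. All knockdown values were above all controls (log2 fold change 1.57, SE 0.41, edgeR adjusted p = 0.149, DESeq2 adjusted p = 0.00884). Psmb9, an immunoproteasome subunit gene, stood at 6.79, 4.24 and 4.71 CPM and at 11.4, 12.8 and 11.6 CPM. It showed the same separation (log2 fold change 1.18, SE 0.25, edgeR adjusted p = 0.0897, DESeq2 adjusted p = 0.00169). With control replicate 1 left out, edgeR called Tap1 (2.18, adjusted p = 0.000134) and Psmb9 (1.43, adjusted p = 0.000513) higher.

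Markers of cells that express these genes also differed between libraries. The 8 hepatocyte markers summed to 104345 to 141276 CPM in controls and to 102533 to 116619 CPM after knockdown, with 77150 to 102962 CPM from Alb alone in controls. None passed edgeR or DESeq2 with all libraries (2 lower at an unadjusted p under 0.05), and 7 had negative log2 fold changes (median -0.30). Ttr and Cps1 were below every control (25%, against 10% of all genes). Without control replicate 1 edgeR called these 2 lower, where 16.1% of all genes were, and 4 were negative (median -0.003). The 11 monocyte and macrophage markers found of 12 listed summed to 415 CPM in control replicate 1, to 197 and 190 CPM in the other controls and to 323 to 441 CPM in the knockdown libraries. None of the 11 tested passed edgeR with all libraries (3 at an unadjusted p under 0.05, 2 by DESeq2). In 3 of the 11 every knockdown library lay above every control (27.3%, against 13% of all genes). Without control replicate 1, 9 were called higher, where 16.5% of all genes were. The 10 Kupffer cell markers summed to 481, 322 and 305 CPM in the controls and to 447 to 504 CPM in the knockdown libraries. edgeR called 0 of the 10 with all libraries (4 higher and 1 lower at an unadjusted p under 0.05). In 4 of the 10 every knockdown library lay above every control and in 1 below (40% and 10%, against 13% and 10% of all genes). Without control replicate 1 it called 7 higher and 1 lower, where 16.5% and 16.1% of all genes were. Cd163, a scavenger receptor gene of resident macrophages, went against the sum, at 15.6, 34.1 and 36.9 CPM in the controls and 7.05, 12.4 and 10.9 CPM in the knockdown libraries (log2 fold change -1.51, SE 0.38, edgeR adjusted p = 0.140), while DESeq2 called it lower (adjusted p = 0.00871). The 8 stellate cell and fibroblast markers summed to 131, 164 and 156 CPM in the controls and to 263, 224 and 357 CPM in the knockdown libraries. With all libraries edgeR called 1 of the 8 higher, against 0.741% of all genes, and DESeq2 4, against 3.73%. In 4 of the 8 every knockdown library lay above every control (50%, against 13% of all genes). Without control replicate 1, edgeR called 5 higher, where 16.5% of all genes were. The 8 endothelial markers summed to 162, 152 and 138 CPM in the controls and to 127, 161 and 181 CPM in the knockdown libraries. With all libraries 0 of the 8 were called by edgeR or DESeq2, and 0 were above every control. Without control replicate 1, edgeR called 1 higher. The part of any of these cells in the higher antiviral values was not tested. The 12 T and NK cell markers, which include Cd3e, Cd8a and Ncr1, summed to at most 0.810 CPM in any library, and Cd8b1 had no read. The 6 neutrophil markers summed to at most 0.795 CPM, and Ly6g had no read.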

How the data were processed

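The authors deposited raw counts per gene for each of 6 libraries and a table of FPKM values. The counts come from HTSeq after HISAT2 2.10 alignment to GRCm38 (mm10), and Cufflinks 2.2.1 gave the FPKM values, with tools and build per the submitters' processing notes. Settings, and the use of strand, are not stated there. Symbols, present only in the FPKM table, were joined to the counts by gene ID.

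Counts were scaled by TMM and tested with edgeR 4.0.16 (quasi-likelihood, filterByExpr, knockdown against control, all genes, Benjamini-Hochberg adjustment, 0.05). CPM values are unlogged, and log2 values for deviations used a prior count of 2. DESeq2 1.42.0, limma 3.58.1 (voom weights, or log2(FPKM + 1) and log2(FPKM + 0.1) of the deposited FPKM, at least 0.5 FPKM in 3 libraries), other scalings and filters, a replicate block and leaving out each library were alternatives, in R 4.3.3. The offset for GC content and length (longest transcript in GENCODE M21, loess span 0.3) was added after seeing the data. The scripts were tested on simulated data.

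Rows that name no gene were left out: 2.48% to 5.66% of reads per library lay in no feature and 4.69% to 6.87% were ambiguous. Replicates differed by more than sampling noise (chi-square per gene at least 50.2). Floors of 3 reads cover counting error only. Groups came from the titles.

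The members and lists were chosen with earlier results of these data known. Values in every library are given for members called with all libraries, the 3 of smallest p in each role list (with the next if called without control replicate 1), all regulators, all GTPases and the near-identical pairs Ifit3 with Ifit3b and Oas1a with Oas1g. For pathway lists the 2 of smallest p are named, with Ifnar1, Ifngr1, Ifnb1 and Ifng. 1 further gene of that rule is not reported here. Other names were chosen after their values were seen. Windows of 300 bases came from RefSeq's promoter table, which had 37 of the members. Pathway and marker lists were matched by symbol in the same way.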

Additional observations from a re-analysis of the deposited data

How the results depend on the processing

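With all libraries, edgeR called 102 genes higher and 17 lower, 2 and 0 of them members, and 1 type I antiviral gene and 0 GTPases higher. Median ratio size factors and a filter of 1 CPM in 3 libraries left all of these counts within 1.5 times. Without a filter on low counts the genes called were 213 higher and 34 lower. DESeq2 called 590 and 221, with 12 members and 11 antiviral genes higher. limma-voom with quality weights called 2576 and 2512, with 24 members higher and 6 lower, 18 antiviral genes and 2 GTPases higher. On the authors' FPKM, limma on log2(FPKM + 1) called 27 genes lower, 1 member and 0 antiviral genes higher, and limma on log2(FPKM + 0.1) called 0 of either (16 members at an unadjusted p under 0.05, where 14.3% of all genes were). limma on log2(FPKM + 1) without a filter called 40 genes higher and 7 lower, and again 0 members or antiviral genes (17 members at an unadjusted p under 0.05, where 11.6% of all genes were). The antiviral median, 0.76 in edgeR, was 0.54 with log2(FPKM + 1) and 0.53 without the filter, a scale that understates low genes. The offset for GC content and length, added after seeing the data, gave 318 and 301 genes, 8 members and 7 antiviral genes higher. Without control replicate 1 it gave 1746 and 2884 genes, 17 members higher and 7 lower, 15 antiviral genes and 1 GTPase higher. The causes of these changes were not tested.

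Leaving out 1 library at a time gave 0 to 2348 genes higher and 0 to 2284 lower, 0 to 22 members higher and 0 to 6 lower, 0 to 17 antiviral genes and 0 to 2 GTPases higher. The highest of each came without control replicate 1. Among the other 5 fits, 3 called 0 genes (without the second control, and without the first or the third knockdown library), with 1633, 1130 and 1224 genes at an unadjusted p under 0.05. The antiviral median stayed between 0.68 and 0.84, and the GTPase median ran from -0.15 to 0.27.

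Same-numbered libraries did not deviate together from their group means in every case (correlations 0.25, -0.08 and 0.29). Correlations between different numbers were not set beside these, so they cannot show whether the shared numbers pair the libraries. With the replicate block edgeR called 33 genes higher and 2 lower, and 0 members or antiviral genes (17 members at an unadjusted p under 0.05, where 12.3% of all genes were), with Xaf1 at an adjusted p of 0.103 and Cmpk2 at 0.0991.

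Of the 49 members, 33 kept their direction in all 17 alternatives, 22 of 34 antiviral genes and 5 of 7 GTPases among them. Genes given with values that changed sign in log2 fold change were mostly near 0. Irf7 was at 0.041 without a filter, 0.0021 with the filter of 1 CPM, 0.199 with voom, 0.055, 0.057 and 0.055 in the FPKM fits (+ 1, + 0.1, no filter) and 0.0064 with the block. Ifih1 was at 0.068, 0.13 and 0.068 in the same FPKM fits and at 0.201 with the block. With log2(FPKM + 0.1), Herc6 was at 0.11 and Gbp7 at 0.21. With the block, Eif2ak2 was at 0.029, Samd9l at 0.051, Herc6 at 0.052 and Gbp7 at 0.085. With voom, Ddx58 was at -0.044 and Iigp1 at -0.43. With the offset, Ddx58 was at -0.090 and Ifnar1 at -0.047, and with the offset and without control replicate 1, Ddx58 was at -0.19 and Bst2 at -0.070. Leaving out 1 library, the ranges were -0.026 to 0.65 for Irf1, -0.22 to 0.26 for Irf7, -0.61 to 0.21 for Ifih1, -0.059 to 0.26 for Ddx58, -0.91 to 0.084 for Eif2ak2, -0.37 to 0.54 for Iigp1 and -0.031 to 0.39 for Ifnar1.

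Depth limits the least abundant members: Oas1g had 9 to 38 reads in the controls and Ifit3b 14 to 33.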
